A study of Mus musculus with 24 samples.

Results

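The nuclear-encoded subunits of the mitochondrial respiratory chain and the ATP synthase were examined in RNA sequencing libraries of mouse bone marrow-derived macrophages (BMDMs). A gene was taken as a member if its symbol began with Nduf followed by a, b, c, s or v and a digit, was Sdha to Sdhd, or began with Uqcr, Cox4 to Cox8 or Atp5, and if its log2 value reached 4 in at least 3 of the 24 libraries. Of 24273 genes in the table, 85 had such a symbol and 77 were members, so the members were chosen by symbol and by level over all libraries, under a rule written with earlier results of these data known. The members were 35 genes of complex I, 4 of complex II, 8 of complex III, 13 of complex IV, with Ndufa4 counted there, and 17 with symbols of complex V. Each of the 77 was protein coding, lay above the floor in all 24 libraries and passed the filter on low values, and together they lay on 19 chromosomes.

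The libraries came from mice on a C57BL/6 background. BMDMs had been grown from bone marrow for 7 days in medium conditioned by L cells. Both genotypes carried LysM-Cre, a Cre recombinase inserted at the lysozyme locus Lyz2 and active in myeloid cells. The controls, labelled LysM-Cre, carried this driver, and whether they also had 1 floxed Fos allele differs between the series description and the study's own account. The second genotype, labelled FosKO, was LysM-Cre Fos-fl/fl, in which Cre was meant to remove the transcription factor gene Fos. Cells were left unstimulated (0 h) or received 100 ng/ml of LPS, a bacterial product sensed by TLR4, and were collected after 0.5, 1 or 2 h, which made 8 groups of 3 libraries. The study's methods call such libraries biological replicates without saying whether they came from separate animals or cultures, so the p-values measure the spread between these libraries.

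Values are on the log2 scale as deposited, where 1 unit is 2-fold. The study's methods give a typical read yield and none for a single library, so the depth behind each value is unknown. A member was called at an adjusted p under 0.05 in limma, with p-values adjusted by the Benjamini-Hochberg method over 13901 tested genes. With 3 libraries against 3, an exact two-sided permutation test of 1 gene cannot give a p below 0.1 and was not used. The median SD of a member within a group was 0.04, against 0.07 over all tested genes.

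The respiratory chain passes electrons from NADH, through complex I, and from succinate, through complex II, to ubiquinone, then through complex III and cytochrome c to complex IV, where oxygen is reduced to water. Complexes I, III and IV pump protons across the inner membrane, and complex V, the ATP synthase, lets them back to make ATP. In macrophages answering LPS, metabolism is known to move towards glycolysis, complex II is known to oxidise succinate that accumulates, and itaconate, made by the product of Acod1, is known to inhibit complex II.

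The letters of sites of 5 transcription factor families were searched, on both strands, in RefSeq promoters (GRCm38.p6) reaching from 250 bases before to 50 bases after the annotated start. Of the 77 members, 65 matched a promoter, with 71 promoters between them. The sequences shown next were chosen because they belong to members described below: the 100 bases before the start for Cox5a, Ndufb2 and Ndufb8, and 30 bases around a site for the others. Capitals mark the site, and Cox5a and Ndufb8 are printed to show promoters in which none of the 5 motifs occurred.

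Cox5a, chr9:57521132-57521231, plus strand: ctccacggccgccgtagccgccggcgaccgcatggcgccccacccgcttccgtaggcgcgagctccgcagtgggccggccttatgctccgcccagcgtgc

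Ndufb2, chr6:39592465-39592564, plus strand: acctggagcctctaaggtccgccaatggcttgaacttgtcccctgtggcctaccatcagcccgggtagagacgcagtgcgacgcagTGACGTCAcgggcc

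Ndufb8, chr19:44555443-44555542, minus strand: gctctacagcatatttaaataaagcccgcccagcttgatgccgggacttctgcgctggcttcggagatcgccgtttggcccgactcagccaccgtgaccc

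Ndufa10, chr1:92473807-92473836, minus strand: acactcagtggTGACGTCAtggcagcgcgc

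Uqcrfs1, chr13:30545327-30545356, minus strand: cggcgtcgcgcTGACGTCAcaaaccctgcg

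Uqcr11, chr10:80406807-80406836, minus strand: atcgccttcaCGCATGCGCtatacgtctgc

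Ndufc1, chr3:51408914-51408943, minus strand: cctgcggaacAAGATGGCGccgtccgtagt

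The cAMP response element (CRE) TGACGTCA occurred in 4 member promoters, those of Ndufa10, Ndufa11, Ndufb2 and Uqcrfs1, which is 5.63% of member promoters against 3.02% of promoters of tested genes and 1.79% of all 32851 promoters in the reference. The NRF1 site GCGCATGCG, read on the opposite strand in the Uqcr11 sequence above, occurred in 8 member promoters (11.3%, against 3.64% of tested genes and 1.75% of all). The YY1 site AAGATGGCG, shown for Ndufc1, occurred in 9 (12.7%, against 3.06% and 1.4%). The ETS and GABP site CCGGAAG occurred in 16 (22.5%, against 17.9% and 8.86%). The AP-1 site TGANTCA, the letters bound by dimers that contain Fos, occurred in 7 (9.86%, against 5.25% and 7.81%), in the promoters of Atp5c1, Atp5g1, Cox7c, Ndufa13, Ndufa5, Ndufa9 and Uqcrh. No motif overlapped another in a member promoter, and a match is a description of letters and not evidence of binding.

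Checks of the libraries bear on all comparisons. Fos did not follow the label: its group means ran 11.11, 13.52, 11.15 and 9.52 over the 4 times in LysM-Cre and 12.60, 12.75, 12.79 and 12.80 in FosKO, so the level of Fos does not check the genotype, and FosKO below means the libraries labelled FosKO. Lyz2, the locus of the driver, lay between 10.94 and 11.33 in LysM-Cre group means and between 16.10 and 16.32 in FosKO. Whether the driver allele was matched between the genotypes was not tested. Each genotype difference below comes with this difference at Lyz2, and what goes with Lyz2 and what goes with Fos cannot be told apart. All 10 macrophage markers had a mean above 8, with a summed level of 17.22 to 17.52 in LysM-Cre and 17.74 to 18.10 in FosKO. Lyz2 is 1 of the 10, and without it the summed level was 17.20 to 17.50 in LysM-Cre and 17.18 to 17.60 in FosKO. Of 9 neutrophil markers in the table, 4 passed the filter and none had a mean above 8, and the defining Elane, Prtn3, Camp, Retnlg and Ly6g did not pass it. Of 7 dendritic cell markers 5 passed and 1, Itgax, had a mean above 8 (11.47). Of 5 T cell, 5 B cell and 6 stromal markers 1, 1 and 4 passed, none with a mean above 8, and neither of the 2 erythroid markers in the table passed. The part of these differences in the results was not tested, and in bulk RNA fewer cells of a type and less RNA per cell cannot be told apart. The 18S ribosomal RNA gene lay between 16.65 and 17.00 in 5 libraries at 0.5 and 1 h and between 18.57 and 19.39 in the other 19, so counts of members at 1 h, and the 1 h calls of named genes that were lost, are also given without the 5.

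FosKO replicate 3 at 0 h stood apart in the members. In it 64 of the 77 members (83.1%) lay below the mean of the other FosKO libraries at 0 h, by a median of 0.10 over the members, against 48.7% of all tested genes. The mean level of the 77 members was 9.65 in this library, and 9.77 and 9.79 in the other libraries of the group. Atp5g2, a gene for subunit c of the ATP synthase, lay 1.56 below the other libraries there. Counts of members called between genotypes at 0 h or after LPS in FosKO are therefore given with and without it, and so is each named member whose call was lost without it.

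The mean level of all members moved within a narrow range over the experiment. Over 0, 0.5, 1 and 2 h the LysM-Cre means were 9.78 ± 0.02, 9.75 ± 0.003, 9.82 ± 0.02 and 9.86 ± 0.004 (SD, n = 3). The FosKO means over the same times were 9.74 ± 0.07, 9.76 ± 0.001, 9.77 ± 0.007 and 9.86 ± 0.02 (SD, n = 3). No called member differed by as much as 2-fold in any of the 13 comparisons.

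**Figure D1:**
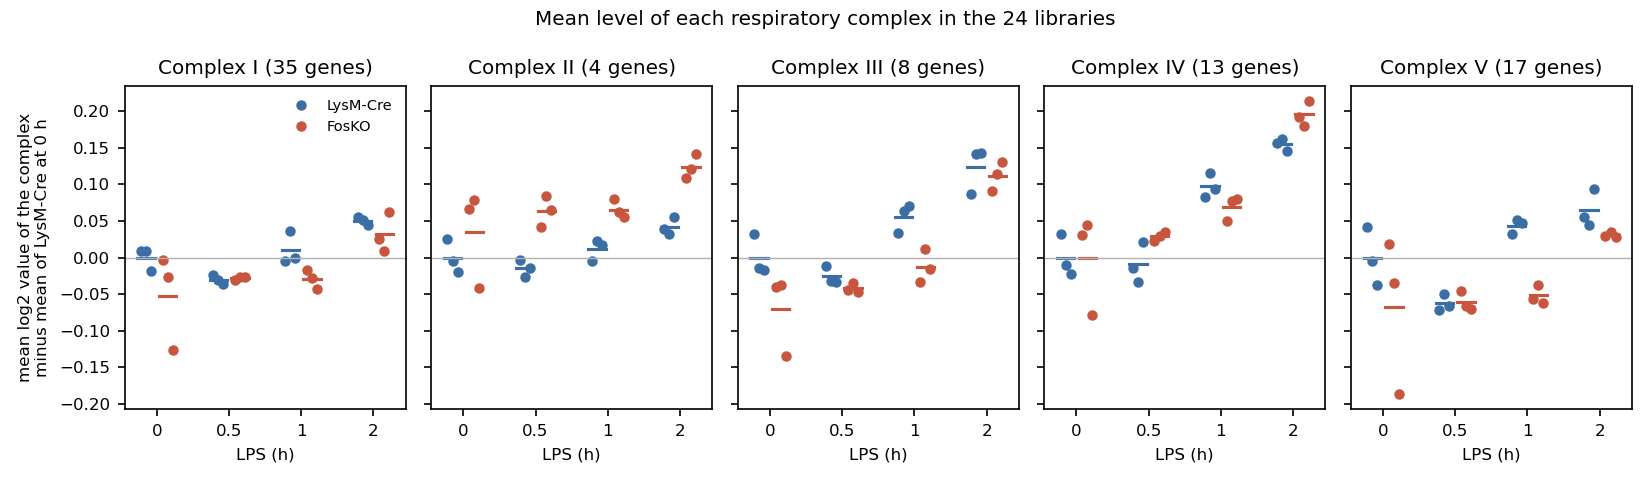
Mean log2 value of the members of each complex in each library (points), minus the LysM-Cre mean at 0 h, against hours of LPS; bars are group means, n = 3. On the deposited scale the 2 h libraries of complexes III and IV lie above all 0 h libraries in both genotypes, though after quantile normalisation their median 2 h differences were 0.0045 and 0.0063 in LysM-Cre and 0.05 in FosKO, and FosKO replicate 3 is the lowest 0 h library in all 5 complexes.

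The first comparison asked how the genotypes differed at each time. At 0 h 27 members were called, 7 higher and 20 lower in FosKO, while 35.4% of all tested genes were called, 19.5% higher and 15.9% lower. At 0.5 h 17 members were called, 13 higher and 4 lower, beside 40.9% of all genes, 21.2% higher and 19.7% lower. For 1 h the count was 24, with 5 higher and 19 lower, beside 33.9% of all genes, 18% higher and 15.9% lower. For 2 h it was 18, with 10 higher and 8 lower, beside 44.6% of all genes, 24.4% higher and 20.3% lower. On the deposited scale the share of members called was 35.1%, 22.1%, 31.2% and 23.4% in the order of time, near the background at 0 and 1 h and below it at 0.5 and 2 h. The libraries of the genotypes did not overlap for 26, 29, 37 and 32 members in the order of time, beside 44.5%, 50.8%, 45% and 54% of all genes. The median member difference was -0.06, -0.02, -0.06 and -0.01 at 0, 0.5, 1 and 2 h, against 0.00 over all tested genes. The split of directions depended on how the libraries were scaled: with TMM factors it was 7 higher and 18 lower, 13 and 3, 5 and 20, and 7 and 12, and after quantile normalisation 2 and 37, 7 and 12, 1 and 30, and 3 and 16. After quantile normalisation the share of members called was 50.6% at 0 h, beside 36.2% of all genes, and 40.3% at 1 h, beside 35%, so there it lay above the background. At 0.5 and 2 h it was 24.7%, beside 41.7% and 43.3%.

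**Figure D2:**
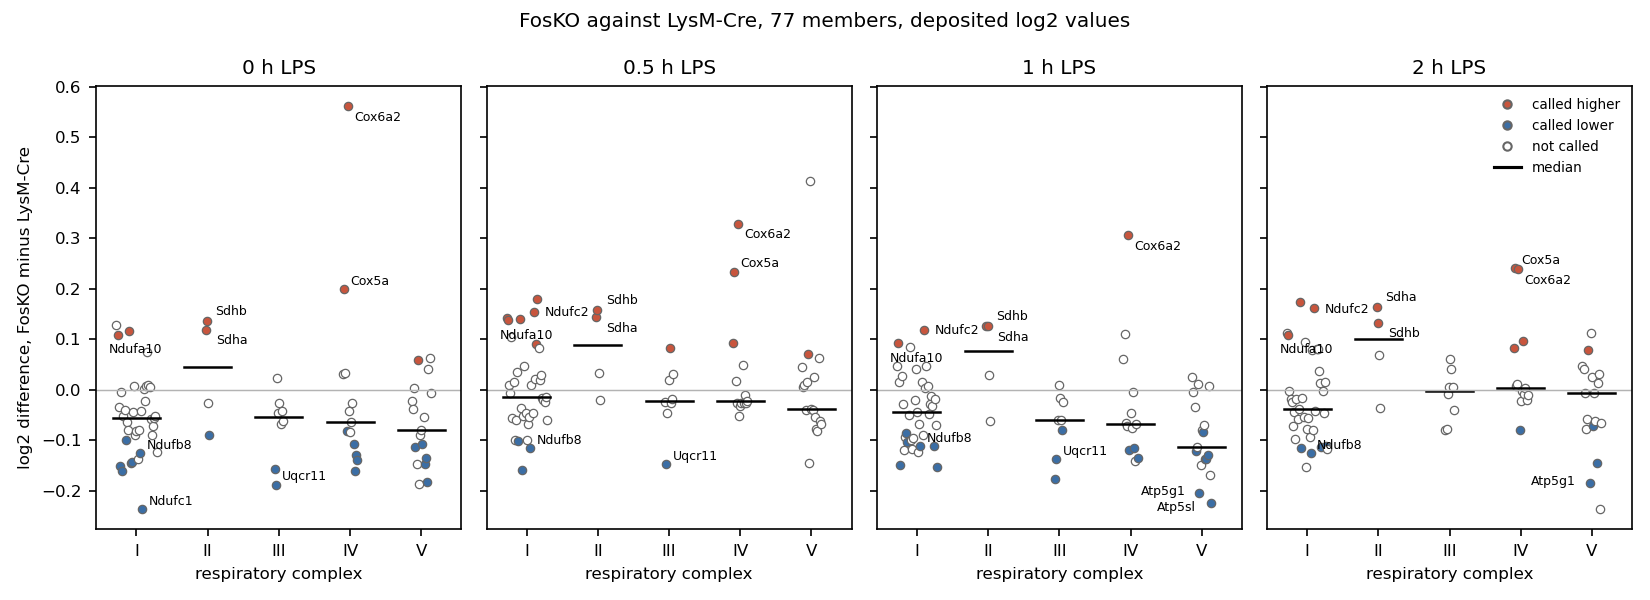
Log2 difference, FosKO minus LysM-Cre, of each of the 77 members (points) by complex at 0, 0.5, 1 and 2 h of LPS, with filled points for called members and bars for medians, n = 3 libraries a group. Cox6a2, Sdha and Sdhb sit above 0 at all 4 times and Ndufb8 below it, as they also did with TMM factors and after quantile normalisation, where however Sdha was called at no time.

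When FosKO replicate 3 was left out, 14 members were called at 0 h, 8 higher and 6 lower, with 28.6% of all genes, and 11 of the 27 remained. Those 11 were Cox5a, Ndufa9, Sdhb, Uqcr11, Sdha, Ndufb8, Ndufa10, Cox6a2, Cox7b, Atp5h and Atp5l. Without LysM-Cre replicate 1 at 0 h the count was 17 (30.5% of all genes), and with only the groups compared in the fit it was 11, 5 higher and 6 lower (27.6%). At 1 h leaving out LysM-Cre replicate 2 gave 12 (28.8%) and replicate 3 gave 15 (29.9%), and at 2 h leaving out LysM-Cre replicate 2 or 3 or FosKO replicate 2 gave 12 (39.5%, 41% and 39.9%). Among the libraries with high 18S, which are 1 LysM-Cre library, assumed to vary like the other groups, and 2 FosKO libraries at 1 h, 6 members were called at 1 h (21.5% of all genes), with Sdhb, Sdha and Cox6a2 higher and Cox7b, Atp5j2 and Atp5sl lower. The other calls at 1 h were lost in that fit, and no member of complexes I or III was called in it.

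Across the 4 times, 4 members were higher in FosKO every time, namely Ndufa10, Sdha, Sdhb and Cox6a2, which is 5.19% of members against 11.4% of all tested genes. Ndufb8 was lower every time (7.11% of all tested genes were). In total, on the deposited scale, 14 members were higher at 1 or more times and lower at none, 30 were lower at 1 or more times and higher at none, 33 were called at no time, and none was higher at one time and lower at another. These were 18.2%, 39.0%, 42.9% and 0% of members, beside 30.8%, 30.7%, 35.6% and 2.85% of all tested genes. The numbers were 16, 28, 33 and none without FosKO replicate 3 at 0 h, and Cox5a and Ndufa9 joined the members higher every time (7.79%, beside 10.8%). Among high 18S libraries, with 1 LysM-Cre library left at 1 h, Sdha and Sdhb alone were higher every time and none was lower every time. Both shares lay below those of all tested genes, and more members than with all libraries were called at no time.

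In complex I, the NADH dehydrogenase, the members called higher and lower in FosKO numbered 2 and 7, 6 and 3, 2 and 6, and 3 and 4 in the order of time, counts on the deposited scale whose totals moved with the scaling as given above. The 0 h split turned without FosKO replicate 3, to 4 higher and 2 lower (17.1%, beside 28.6% of all genes), and among high 18S libraries none was called at 1 h. The 2 directions together were 25.7%, 25.7%, 22.9% and 20.0% of the 35 genes, beside 35.4%, 40.9%, 33.9% and 44.6% of all genes, the same background as for the other complexes. Ndufa10, an accessory subunit of the membrane arm (chr1:92439010-92473860, minus strand), read 10.32, 10.34 and 10.32 in LysM-Cre and 10.40, 10.46 and 10.44 in FosKO at 0 h. At 2 h it read 10.42, 10.43 and 10.42 against 10.53, 10.49 and 10.58. The groups did not overlap at any of the 4 times. The differences were 0.11, 0.14, 0.09 and 0.11, with adjusted p of 0.00283, 2.8e-04, 0.0101 and 0.00204 in limma. At 1 h the call was lost without LysM-Cre replicate 3 (adjusted p = 0.0616) and among high 18S libraries (0.07, adjusted p = 0.277), and after quantile normalisation the call was kept only at 0.5 h.

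Ndufb8, an accessory subunit of the distal membrane arm (chr19:44548572-44555440, minus strand), showed the opposite order. It read 10.46, 10.46 and 10.40 in LysM-Cre against 10.35, 10.37 and 10.22 in FosKO at 0 h, and 10.48, 10.40 and 10.47 against 10.32, 10.30 and 10.36 at 2 h. Every FosKO library lay below every LysM-Cre library of its time. The differences were -0.13, -0.12, -0.11 and -0.13, with adjusted p of 0.00527, 0.00838, 0.013 and 0.00403 in limma. They were called at every time with TMM factors (-0.12, -0.11, -0.12 and -0.15) and after quantile normalisation (-0.18, -0.17, -0.16 and -0.18). Leaving out FosKO replicate 3 gave a 0 h difference of -0.08 (adjusted p = 0.0475). At 1 h the call was lost without LysM-Cre replicate 2 (0.0596), when FosKO replicate 1 was left out (0.0528) and among high 18S libraries (-0.10, 0.2).

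Ndufc2, another accessory subunit of the membrane arm (chr7:97400003-97407802, plus strand), did not differ at 0 h, where it read 9.61, 9.68 and 9.64 in LysM-Cre and 9.64, 9.70 and 9.58 in FosKO. At 0.5 h it read 9.62, 9.61 and 9.59 against 9.76, 9.75 and 9.76, and at 2 h 9.67, 9.60 and 9.61 against 9.80, 9.80 and 9.77. The groups overlapped at 0 h and were separate from 0.5 h on. The differences were 0.15, 0.12 and 0.16 at 0.5, 1 and 2 h, with adjusted p of 3.22e-04, 0.00411 and 1.8e-04 in limma, and the 1 h call was lost after quantile normalisation (0.09, adjusted p = 0.0566) and among high 18S libraries (0.12, 0.114).

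Other members of complex I were called at 1 to 3 of the times. Ndufs3, a core subunit of the matrix arm, was called at 0.5 h, where it read 9.47, 9.54 and 9.51 in LysM-Cre and 9.67, 9.68 and 9.69 in FosKO, a difference of 0.18 with adjusted p of 4.17e-04. Ndufb11, of the membrane arm, read 9.30, 9.22 and 9.21 against 9.11, 9.07 and 9.08 at 0.5 h (-0.16, adjusted p = 0.0123), and was also lower at 0 h (-0.14, adjusted p = 0.0275), where the difference was -0.07 (adjusted p = 0.233) without FosKO replicate 3. Ndufc1, whose promoter stretch with the YY1 letters is printed above, read 8.50, 8.38 and 8.50 against 8.38, 8.26 and 8.02 at 0 h. These groups meet near 8.38, and the difference of -0.24 (adjusted p = 0.0147) was -0.14 (adjusted p = 0.13) without FosKO replicate 3. Ndufa9, which helps join the arms of the complex, was higher in FosKO at 0, 0.5 and 2 h, by 0.12, 0.14 and 0.17, and all 3 calls were lost after quantile normalisation (0.06, 0.10 and 0.09, adjusted p = 0.233, 0.0569 and 0.0754).

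Complex II, succinate dehydrogenase, is encoded wholly in the nucleus, and its catalytic part is made of Sdha, the flavoprotein that oxidises succinate, and Sdhb, the iron-sulphur protein. Sdha (chr13:74322254-74350280, minus strand) read 12.08, 12.08 and 12.05 in LysM-Cre and 12.19, 12.22 and 12.16 in FosKO at 0 h, and 12.11, 12.10 and 12.14 against 12.25, 12.31 and 12.27 at 2 h. Its highest LysM-Cre library lay below its lowest FosKO library at every time. The differences were 0.12, 0.14, 0.13 and 0.16 (SE 0.02), with adjusted p of 3.27e-04, 3.36e-05, 1.87e-04 and 6.08e-06 in limma. After quantile normalisation they were 0.03, 0.07, 0.07 and 0.03 and none was called, with adjusted p from 0.0604 to 0.51.

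Sdhb (chr4:140961203-140979193, plus strand) read 10.86, 10.76 and 10.77 against 10.97, 10.97 and 10.87 at 0 h, and 10.78, 10.79 and 10.80 against 10.92, 10.88 and 10.97 at 2 h. The groups were separate at each time, at 0 h by less than 0.01. The differences were 0.14, 0.16, 0.13 and 0.13 (SE 0.03), with adjusted p of 0.00186, 4.0e-04, 0.00357 and 0.00173, and after quantile normalisation only that at 0.5 h was called (0.12, adjusted p = 0.0109). The 0 h differences of Sdha and Sdhb were 0.13 and 0.17 without FosKO replicate 3. Of the 4 genes 3, 2, 2 and 2 were called in the order of time. Of the membrane anchors, Sdhc was called at no time, but without that library it was called higher in FosKO at 1 or more times and lower at none. Sdhd was lower at 0 h by -0.09 (adjusted p = 0.0487), which became -0.04 (adjusted p = 0.342) without FosKO replicate 3.

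In complex III, the cytochrome bc1 complex, none and 2, 1 and 1, none and 3, and none and none were called higher and lower in the order of time, in all 25%, 25%, 37.5% and 0% of its 8 genes. Only Uqcr11 was called at 0 h without FosKO replicate 3. Uqcr11, a small subunit whose NRF1 letters are printed above, read 9.43, 9.35 and 9.29 in LysM-Cre and 9.20, 9.20 and 9.10 in FosKO at 0 h. At 2 h it read 9.36, 9.42 and 9.39 against 9.27, 9.34 and 9.32. The groups were separate at both times, but close at 2 h. The differences were -0.19, -0.15, -0.14 and -0.08, with adjusted p of 0.0016, 0.00841, 0.0166 and 0.155, and the 1 h call was lost among high 18S libraries (-0.13, adjusted p = 0.216). Uqcr10, another small subunit, was lower at 0 h and 1 h by -0.16 and -0.18, and without FosKO replicate 3 the 0 h difference was -0.10 and not called (adjusted p = 0.0843), nor was the 1 h difference among high 18S libraries (-0.12, 0.269).

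In complex IV, cytochrome c oxidase, 2 and 5, 3 and none, 1 and 3, and 4 and 1 were called higher and lower in the same order, in all 53.8%, 23.1%, 30.8% and 38.5% of 13. The 0 h numbers were 2 and 1 without FosKO replicate 3 (23.1%, beside 28.6% of all genes), and among high 18S libraries the 1 h numbers were 1 and 1 (15.4%, beside 21.5%). Cox5a, a matrix-side subunit (chr9:57521274-57532426, plus strand), read 10.59, 10.53 and 10.48 in LysM-Cre and 10.72, 10.85 and 10.63 in FosKO at 0 h. At 0.5 h it read 10.53, 10.54 and 10.54 against 10.73, 10.76 and 10.82, and at 2 h 10.81, 10.85 and 10.77 against 11.02, 11.05 and 11.09. All FosKO libraries were the higher ones at each time. The differences were 0.20, 0.23, 0.11 and 0.24 (SE 0.04), with adjusted p of 0.001003, 1.65e-04, 0.0531 and 1.03e-04 in limma, so the 1 h difference was not called. After quantile normalisation they were 0.15, 0.20, 0.07 and 0.13, with the 0, 0.5 and 2 h calls kept, and without FosKO replicate 3 the 0 h difference was 0.25.

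Cox6a2, the form of subunit VIa known from heart and skeletal muscle (chr7:128205435-128206387, minus strand), was one of the members nearest to the floor. It read 4.82, 4.68 and 4.71 in LysM-Cre and 5.34, 5.44 and 5.12 in FosKO at 0 h, and 5.07, 5.03 and 5.04 against 5.27, 5.41 and 5.18 at 2 h. The groups were separate at both times and their gap was narrower at 2 h. The differences were 0.56, 0.33, 0.31 and 0.24, with adjusted p of 8.6e-05, 0.00826, 0.0158 and 0.046. The 2 h call was lost with TMM factors (0.22, adjusted p = 0.0719) and when each of 5 of the 6 libraries was left out (adjusted p 0.0761 to 0.194). The 1 h call was lost when LysM-Cre replicate 1 (0.0575) or FosKO replicate 2 (0.0995) was left out, and was kept among high 18S libraries (0.44, 0.0373). Its paralog Cox6a1, the form found in most tissues, was lower in FosKO at 0 h by -0.08 (adjusted p = 0.0467; 0.0562 with TMM factors and 0.194 without FosKO replicate 3) and not called at the other times.

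Ndufa4, first described in complex I and now placed in complex IV (chr6:11900292-11907497, minus strand), read 10.20, 10.15 and 10.18 in LysM-Cre and 10.09, 10.06 and 9.95 in FosKO at 0 h. The 0.5 h libraries lay between 10.12 and 10.16 against 10.11 and 10.13. The difference was -0.14 at 0 h (adjusted p = 0.0172) and at 1 h (adjusted p = 0.0216), and -0.02 and -0.01 at 0.5 and 2 h, where it was not called. Leaving out FosKO replicate 3 left a 0 h difference of -0.10 (adjusted p = 0.12), and among high 18S libraries the 1 h difference was -0.12 (adjusted p = 0.22).

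Among genes with symbols of complex V, 1 and 5, 1 and none, none and 7, and 1 and 3 were called higher and lower in the order of time, in all 35.3%, 5.88%, 41.2% and 23.5% of 17. At 0 h none and 2, Atp5h and Atp5l, were called without FosKO replicate 3 (11.8%, beside 28.6% of all genes), and among high 18S libraries none and 2 at 1 h (11.8%, beside 21.5%). Atp5f1, subunit b of the peripheral stalk, was higher at 0, 0.5 and 2 h by 0.06, 0.07 and 0.08, but after quantile normalisation it differed by -0.01, 0.02 and -0.04 and was called at none of these times, and the 0 h call was also lost without FosKO replicate 3 (adjusted p = 0.0664). Atp5h, subunit d of the same stalk, was lower at 0, 1 and 2 h by -0.11, -0.08 and -0.07, and Atp5k, subunit e of the membrane part, at the same times by -0.14, -0.14 and -0.15, of which that at 0 h became -0.08 (adjusted p = 0.213) without FosKO replicate 3. Among high 18S libraries the 1 h differences were -0.03 for Atp5h (adjusted p = 0.627) and -0.14 for Atp5k (0.257), and neither was called. Atp5l, subunit g (chr9:44912557-44920742, minus strand), read 9.99, 10.05 and 10.02 in LysM-Cre and 9.83, 9.83 and 9.85 in FosKO at 0 h, and 10.19, 10.00 and 10.13 against 10.16, 10.04 and 10.15 at 2 h. The groups were separate at 0 h and overlapped at 2 h. The difference was -0.18 at 0 h (adjusted p = 0.00102), -0.13 at 1 h (adjusted p = 0.0149) and 0.01 at 2 h. Among high 18S libraries, with 1 LysM-Cre library left at 1 h, the 1 h difference was also -0.13 and was not called. Of the 3 genes for subunit c, Atp5g1 was lower at 1 h (-0.20, adjusted p = 0.0386) and 2 h (-0.18, adjusted p = 0.0494, lost when any of the 6 libraries was left out). Among high 18S libraries the Atp5g1 difference at 1 h was -0.17 and not called. Atp5g3 was called at no time, and Atp5g2 spread from 4.09 to 6.02 in the FosKO libraries at 0 h and was called nowhere.

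**Figure D3:**
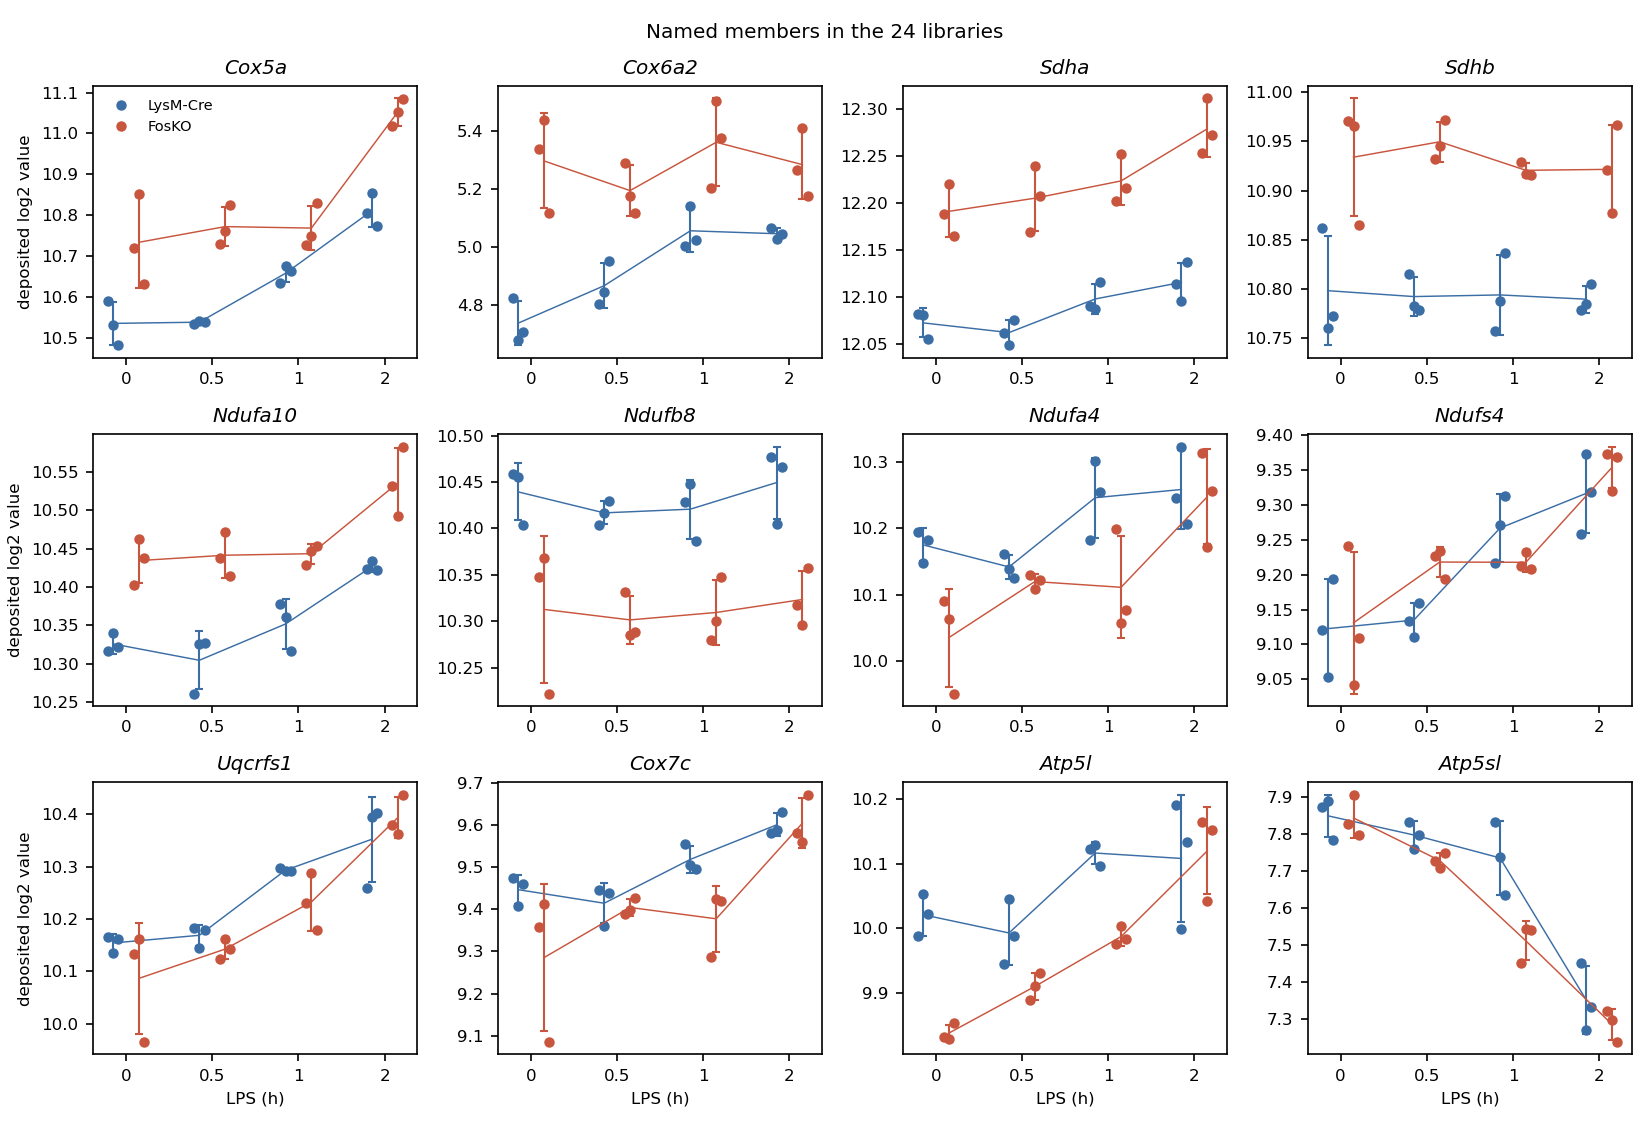
Deposited log2 value of 12 members in each of the 24 libraries (points) against hours of LPS, with the group mean joined by lines and the SD as bars, n = 3; each panel has its own scale. Cox5a, Sdha, Sdhb and Ndufa10 lie higher in FosKO and Ndufb8 lower at all 4 times, although the Sdha gap shrank to between 0.03 and 0.07 after quantile normalisation.

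The second comparison asked how the members answered LPS within each genotype. The 3 LPS times of a genotype share its 0 h libraries, so they are set side by side and not compared with each other. At 0.5 h limma called none of the 77 members in LysM-Cre, with 5 at an unadjusted p under 0.05 and 7.24% of all genes called. In FosKO it called 1, Ndufc2 (5.92% of all genes), and that call was lost in 5 of 6 fits that left out a library. At 1 h 10 members rose and none fell in LysM-Cre, beside 35.8% of all genes called, 19.2% higher and 16.5% lower, but this split turned with the scaling, as given next. In FosKO 11 rose and 1 fell, beside 32.6% of all genes, 17.6% higher and 15% lower, but after quantile normalisation the calls were 2 higher and 16 lower in LysM-Cre and 3 higher and 13 lower in FosKO (39.1% and 35.9% of all genes). With only the groups compared in the fit 13 rose and none fell in LysM-Cre (38% of all genes), and 2 rose and 1 fell in FosKO (21.8%). In LysM-Cre the largest rises beside that of Cox6a2 were those of Cox5b, a zinc-binding subunit of complex IV, and of Ndufs4. Cox5b rose by 0.15 (adjusted p = 0.00302), or by 0.06 (adjusted p = 0.281) after quantile normalisation. Ndufs4 rose by 0.14 (adjusted p = 0.0147), called under all 3 scalings. That call was lost without LysM-Cre replicate 2 at 0 h (adjusted p = 0.0918) or replicate 3 at 1 h (0.0729). Among high 18S libraries the Ndufs4 rise was 0.09 and not called. In FosKO they were Ndufa2, of the matrix arm of complex I (0.19, adjusted p = 0.0129, called under all 3 scalings but not without FosKO replicate 3 at 0 h, adjusted p = 0.0949, or replicate 1 at 1 h, 0.0763), Atp5l (0.15, adjusted p = 0.00565, lost after quantile normalisation at 0.154) and Uqcrfs1. Atp5a1 and Atp5b, the catalytic alpha and beta subunits of the ATP synthase, were called in both genotypes, by 0.09 and 0.08 in LysM-Cre and by 0.14 and 0.11 in FosKO. Neither gene's 1 h rise was called under all 3 scalings in either genotype. Among high 18S libraries none was called in LysM-Cre at 1 h, where 1 LysM-Cre library at 1 h is left, and 5 in FosKO (28.5% of all genes), Atp5b, Atp5a1, Cox4i1, Atp5l and Atp5sl. Leaving out FosKO replicate 3 at 0 h, 4 rose and 2 fell in FosKO at 1 h (32.1% of all genes), and leaving out its replicate 1 at 0 h, 19 (29.7%). In LysM-Cre 5 were called without replicate 2 or replicate 3 at 0 h or replicate 2 at 1 h (at most 31.3% of all genes in each).

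At 2 h the deposited values showed many small rises, a direction that depended on the scaling. In LysM-Cre 37 members rose and 3 fell, while 60.8% of all tested genes were called, with 30.6% of all tested genes called higher and the rest of the 60.8% called lower. In FosKO 51 rose and 3 fell, while 62.1% of all genes were called, 32.6% higher and 29.5% lower. The median member difference was 0.09 in LysM-Cre and 0.14 in FosKO, against -0.02 and 0.00 over all genes. The 2 h libraries did not overlap those at 0 h for 53 members in LysM-Cre (67.9% of all genes) and 50 in FosKO (63.6%), against 14 and 10 at 0.5 h (26.1% and 19.4%) and 28 and 17 at 1 h (49.3% and 39.1%). With TMM factors 31 rose and 3 fell in LysM-Cre and 38 and 3 in FosKO, in all 44.2% and 53.2% of members beside 61% and 62.1% of all genes. After quantile normalisation, however, 7 rose and 16 fell in LysM-Cre and 16 and 16 in FosKO, with member medians of -0.01 and 0.02 against -0.06 over all genes in both, and 20 and 16 members called on the deposited scale changed sign. The share of members called was 51.9% and 70.1% as deposited, and after quantile normalisation 29.9% and 41.6%, beside 60.5% and 60.7% of all genes, so in FosKO it went from above the background to below it. When FosKO replicate 3 at 0 h was left out, 39 rose and 3 fell in FosKO (60.4% of all genes), all 42 of them among the 54. With only the groups compared 35 rose and 3 fell there (56.3%).

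**Figure D4:**
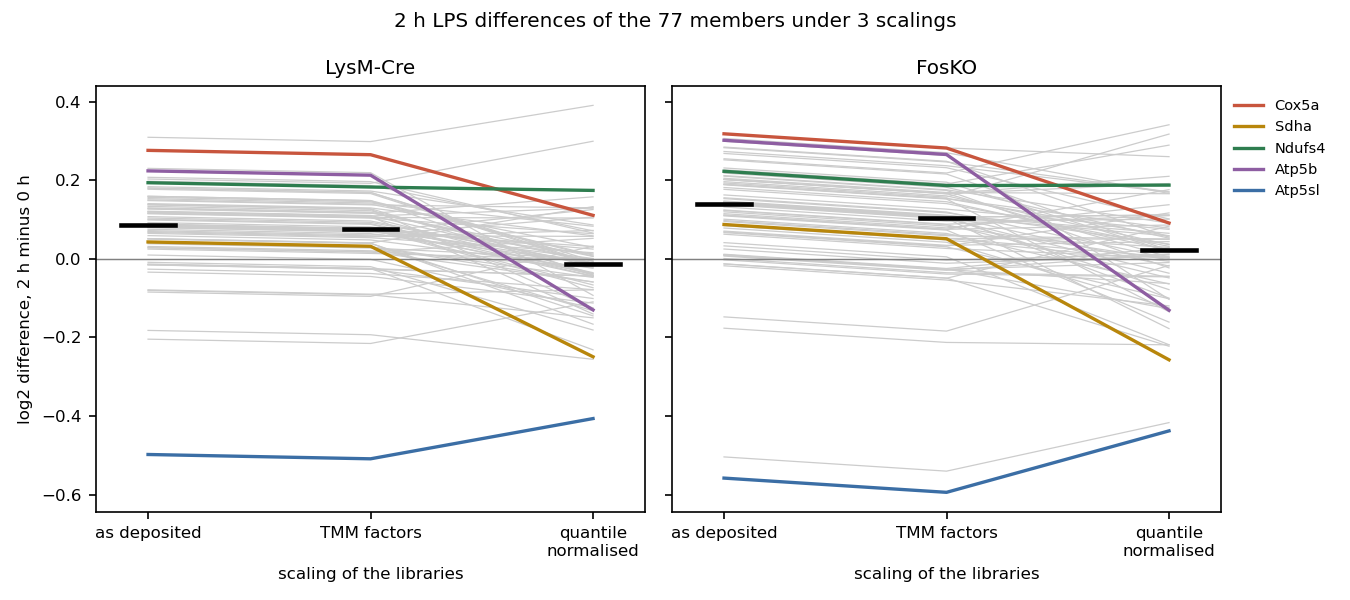
Log2 difference, 2 h minus 0 h of LPS, of each of the 77 members (lines) in LysM-Cre and FosKO under 3 scalings of the libraries, with black bars for the member median. Ndufs4 stays above 0 and Atp5sl below 0 under all 3, whereas Sdha and Atp5b are above 0 as deposited and below 0 after quantile normalisation.

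By complex, on the deposited scale, 10 members rose and 2 fell in complex I of LysM-Cre, and 17 and 1 in FosKO. In complex II 1 and 3 rose, in complex III 6 and 8 of 8, in complex IV 11 and 12 of 13, and in complex V 9 and 11, with 1 and 2 falling. Both directions together were 34.3%, 25%, 75%, 84.6% and 58.8% of complexes I to V in LysM-Cre, beside 60.8% of all tested genes. In FosKO they were 51.4%, 75%, 100%, 92.3% and 76.5%, beside 62.1%. Of all tested genes 30.6% and 32.6% were called higher in LysM-Cre and FosKO. Without FosKO replicate 3 at 0 h, 7 rose and 1 fell in complex I of FosKO (22.9% of its 35 genes, beside 60.4% of all genes), fewer rises than in LysM-Cre. In that fit 3, 6, 12 and 11 rose in complexes II to V. The rises were then 20%, 75%, 75%, 92.3% and 64.7% of complexes I to V, beside 31.7% of all tested genes. The complex medians were 0.07, 0.05, 0.14, 0.15 and 0.10 from I to V in LysM-Cre, and 0.10, 0.11, 0.17, 0.20 and 0.15 in FosKO. In both genotypes 34 members rose (26.2% of all tested genes did), and 2 fell, Ndufv3 and Atp5sl (23.7% of all tested genes did). A further 17 were called higher in FosKO and not in LysM-Cre (22.1% of members, beside 6.08% of all tested genes), and 3 in LysM-Cre and not in FosKO, Ndufa5, Cox6a2 and Atp5c1 (3.9%, beside 3.93%), which does not show that the responses differed. Without FosKO replicate 3 at 0 h, 29 members rose in both (25.8% of all tested genes). Then 10 rose in FosKO and not in LysM-Cre (13%, beside 5.5%) and 10 in LysM-Cre and not in FosKO (13%, beside 4.7%). FosKO thus no longer held more of them than LysM-Cre, though both shares lay above those of all tested genes. Among high 18S libraries the numbers were 16 (20.8%, beside 6.22%) in FosKO only and 2 (2.6%, beside 3.98%) in LysM-Cre only. These counts hold for the deposited scale, since quantile normalisation changed the sign of members in both genotypes.

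**Figure D5:**
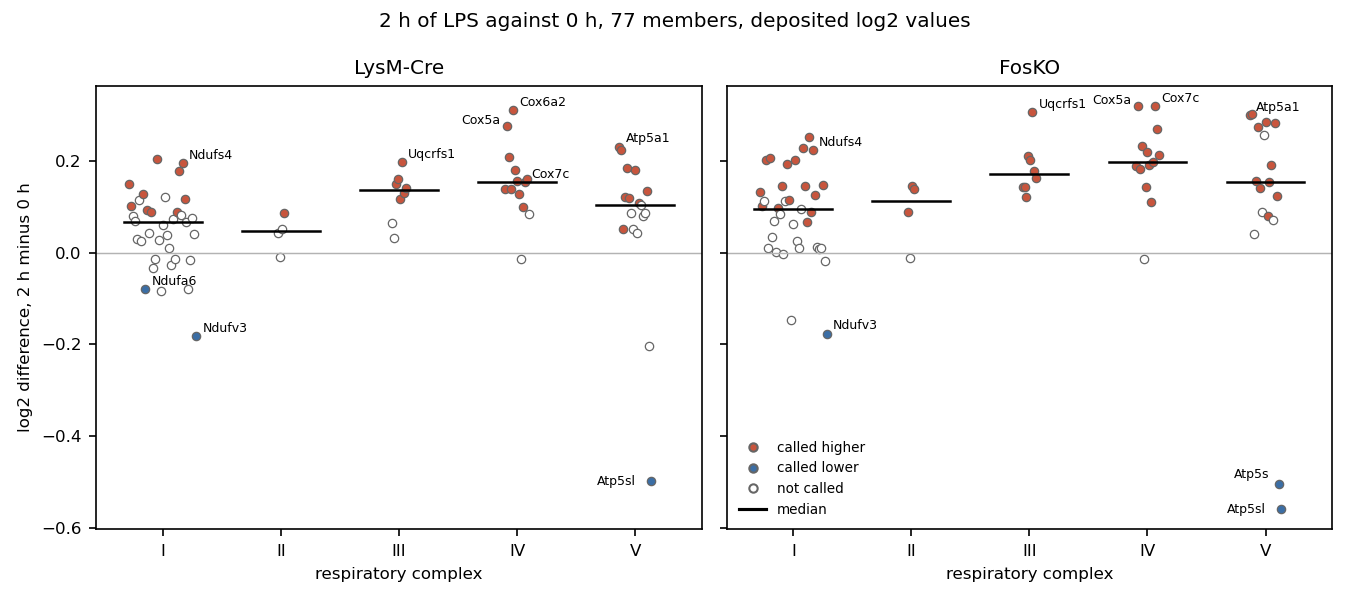
Log2 difference, 2 h minus 0 h of LPS, of each of the 77 members (points) by complex in LysM-Cre and FosKO on the deposited scale, with filled points for called members and bars for medians, n = 3 libraries a group. The medians lie above 0 in all 5 complexes as deposited, but the median over all members was -0.01 in LysM-Cre and 0.02 in FosKO after quantile normalisation, and Atp5sl lies lowest in both.

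Some rises were called the same way under all 3 scalings. In LysM-Cre these were Cox5a, Cox6a2, Ndufa1, Ndufb2 and Ndufs4. In FosKO they were Atp5e, Atp5l, Cox7c, Ndufa12, Ndufa2, Ndufb6, Ndufc1, Ndufs4, Uqcr11 and Uqcrfs1, of which Ndufb6 and Ndufc1 were no longer called on the deposited scale without FosKO replicate 3 at 0 h (0.11 and 0.13, adjusted p = 0.123 and 0.0982). Ndufs4, an accessory subunit of the matrix arm needed for a stable complex I, is in both sets. It read 9.12, 9.05 and 9.19 at 0 h and 9.26, 9.37 and 9.32 at 2 h in LysM-Cre, and 9.24, 9.04 and 9.11 then 9.37, 9.32 and 9.37 in FosKO. The 2 h libraries lay above the 0 h libraries in both genotypes. The rises were 0.19 (adjusted p = 7.31e-04) and 0.22 (adjusted p = 1.76e-04), and 0.17 and 0.19 after quantile normalisation.

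Ndufb2, a small membrane-arm subunit with the CRE letters printed above, read 7.66, 7.45 and 7.53 then 7.70, 7.83 and 7.71 in LysM-Cre, and 7.64, 7.57 and 7.29 then 7.66, 7.77 and 7.66 in FosKO. All 2 h libraries lay above those at 0 h, in FosKO by a narrow margin. The rises were 0.20 (adjusted p = 0.026) and 0.19 (adjusted p = 0.0328), and the FosKO rise was 0.09 (adjusted p = 0.286) without FosKO replicate 3 at 0 h. Among high 18S libraries Ndufb2 was called in no comparison, so both 2 h calls were lost there. Complex I also held the fall common to the genotypes, in Ndufv3, a small subunit of the NADH-binding module. It read 9.66, 9.63 and 9.58 then 9.44, 9.47 and 9.41 in LysM-Cre, and 9.44, 9.47 and 9.59 then 9.29, 9.38 and 9.31 in FosKO. Each genotype's 2 h libraries lay below its 0 h libraries, by -0.18 in both (adjusted p = 0.00493 and 0.00606), and the fall was called under all 3 scalings. Ndufa6 was lower at 2 h in LysM-Cre (-0.08, adjusted p = 0.0351), a call lost in 3 fits that left out a library, and the difference between the genotypes' responses was 0.08 and not called (adjusted p = 0.261).

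In complex II, Sdha rose in FosKO by 0.09 (adjusted p = 0.00216) and differed by 0.04 in LysM-Cre (adjusted p = 0.108), but after quantile normalisation it was lower at 2 h in both, by -0.26 and -0.25. Sdhb differed by -0.01 in each genotype (adjusted p = 0.829 and 0.751). Sdhc read 11.25, 11.24 and 11.20 then 11.30, 11.27 and 11.27 in LysM-Cre, and 11.25, 11.27 and 11.09 then 11.33, 11.37 and 11.35 in FosKO. Its difference was 0.05 (adjusted p = 0.216) and 0.15 (adjusted p = 9.72e-04), and Sdhd rose by 0.09 (adjusted p = 0.0352) and 0.14 (adjusted p = 0.00149), while after quantile normalisation Sdhc and Sdhd were below their 0 h level in both genotypes.

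In complex III, Uqcrfs1, the Rieske iron-sulphur protein (chr13:30540308-30545362, minus strand), whose CRE letters are printed above, showed the largest rises. In LysM-Cre it read 10.16, 10.13 and 10.16 before LPS, 10.30, 10.29 and 10.29 after 1 h and 10.26, 10.39 and 10.40 after 2 h. In FosKO it read 10.13, 10.16 and 9.97, then 10.23, 10.29 and 10.18, then 10.38, 10.36 and 10.44. Libraries at 1 and 2 h lay above all 0 h libraries of their genotype. The 1 h rises were 0.14 in LysM-Cre and 0.15 in FosKO, and neither was called under all 3 scalings. Among high 18S libraries, with 1 LysM-Cre library left at 1 h, they were 0.14 and 0.15 and neither was called (adjusted p = 0.0586 in FosKO). Without FosKO replicate 3 at 0 h the 1 h rise in FosKO was 0.08 (adjusted p = 0.095). The 2 h rises were 0.20 (adjusted p = 4.45e-04) and 0.31 (adjusted p = 2.6e-06), the latter 0.25 without that library. After quantile normalisation the 2 h rise was 0.07 (adjusted p = 0.166) in LysM-Cre and 0.17 (adjusted p = 0.00229) in FosKO. The core proteins Uqcrc1 and Uqcrc2 rose at 2 h by 0.16 and 0.12 in LysM-Cre and by 0.21 and 0.20 in FosKO as deposited. Neither gene's 2 h rise was called under all 3 scalings in either genotype. After quantile normalisation Uqcrc2 differed by -0.04 and 0.0045, not called.

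In complex IV, Cox5a rose from the values given above to its 2 h libraries by 0.28 in LysM-Cre (adjusted p = 1.04e-05) and 0.32 in FosKO (adjusted p = 1.56e-06), and after quantile normalisation by 0.11 (adjusted p = 0.0304) and 0.09 (adjusted p = 0.072, no longer called). Its LysM-Cre libraries read 10.63, 10.68 and 10.66 at 1 h, between those at 0 h and 2 h, a rise of 0.12 (adjusted p = 0.0301). This 1 h rise was not called under all 3 scalings. Among high 18S libraries, with 1 LysM-Cre library left at 1 h, it was 0.10 and not called. Cox6a2 rose in LysM-Cre at 1 h by 0.32 (adjusted p = 0.0114), which among high 18S libraries was 0.27 and not called. At 2 h it rose in LysM-Cre by 0.31 (adjusted p = 0.00763), while in FosKO it differed by -0.01 (adjusted p = 0.918). The difference between those responses was -0.32 and was not called (adjusted p = 0.12), but without FosKO replicate 3 at 0 h it was -0.41 (adjusted p = 0.0388).

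Cox7c, a small structural subunit whose promoter holds the AP-1 letters, read 9.47, 9.41 and 9.46 then 9.58, 9.59 and 9.63 in LysM-Cre, and 9.36, 9.41 and 9.09 then 9.58, 9.56 and 9.67 in FosKO. It rose by 0.15 (adjusted p = 0.0293) and 0.32 (adjusted p = 7.72e-05), the latter 0.22 without FosKO replicate 3 at 0 h, and after quantile normalisation by 0.08, not called, and 0.26. Cox4i1, the common form of the largest nuclear subunit, rose by 0.14 (adjusted p = 1.13e-04) and 0.19 (adjusted p = 2.24e-06) as deposited and was lower, by -0.13 in both, after quantile normalisation. Ndufa4 differed by 0.08 in LysM-Cre (adjusted p = 0.109) and rose by 0.21 in FosKO (adjusted p = 2.79e-04), where quantile normalisation left 0.09 (adjusted p = 0.0775).

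Among genes with symbols of complex V, Atp5a1 read 13.25, 13.22 and 13.22 at 0 h and 13.46 in all 3 libraries at 2 h in LysM-Cre, and 13.23, 13.23 and 13.16 then 13.51, 13.52 and 13.50 in FosKO. Atp5b (chr10:128083273-128090391, plus strand) read 13.39, 13.35 and 13.35 then 13.58, 13.58 and 13.60 in LysM-Cre, and 13.35, 13.36 and 13.26 then 13.61, 13.61 and 13.66 in FosKO. These were tight groups far apart for their spread. The rises were 0.23 and 0.30 for Atp5a1 (adjusted p = 4.46e-09 and 6.5e-11) and 0.22 and 0.30 for Atp5b (adjusted p = 1.03e-07 and 1.05e-09), but after quantile normalisation Atp5a1 was lower by -0.09 and -0.10 and Atp5b by -0.13 in both. The opposite signs under the scalings mean that these rises are relative to the deposited normalisation.

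Atp5sl carries an ATP synthase symbol but is named Dmac2 in the GENCODE annotation, an assembly factor for the distal arm of complex I (chr7:25619414-25625551, plus strand). In LysM-Cre it read 7.87, 7.89 and 7.78 before LPS, 7.83, 7.74 and 7.63 after 1 h and 7.45, 7.27 and 7.33 after 2 h. In FosKO it read 7.83, 7.90 and 7.80, then 7.45, 7.54 and 7.54, then 7.32, 7.30 and 7.24. At 2 h all libraries lay well below those at 0 h in both genotypes. The falls at 2 h were -0.50 (adjusted p = 1.19e-07) and -0.56 (adjusted p = 2.14e-08), and -0.41 and -0.44 after quantile normalisation. In FosKO it had fallen at 1 h too, by -0.33 (adjusted p = 7.41e-05), and at 1 h it was lower in FosKO than in LysM-Cre by -0.22 (adjusted p = 0.00354), or by -0.29 (adjusted p = 0.0218) among high 18S libraries. Atp5s, another gene near the floor, read 5.90, 5.99 and 6.03 then 5.47, 5.30 and 5.64 in FosKO, a fall of -0.50 (adjusted p = 3.02e-04), and differed by -0.20 in LysM-Cre (adjusted p = 0.102).

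The third comparison asked whether the LPS response differed between the genotypes, as an interaction in the same fit. At 0.5 h and 1 h limma called no member, with 4 and 3 at an unadjusted p under 0.05, while 0.115% and 1.22% of all genes were called. At 2 h it called 2 members, Atp5l and Ndufc2, with 8 at an unadjusted p under 0.05, while 15% of all genes were called. Atp5l rose by 0.28 in FosKO (adjusted p = 2.67e-06) and differed by 0.09 in LysM-Cre (adjusted p = 0.0645), a difference of 0.20 (SE 0.06, adjusted p = 0.0213). Ndufc2 rose by 0.14 in FosKO and differed by -0.02 in LysM-Cre, a difference of 0.16 (SE 0.04, adjusted p = 0.0142).

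Both were called under all 3 scalings, but with only the groups compared in the fit neither was (adjusted p = 0.0752 for Atp5l and 0.0695 for Ndufc2), and among high 18S libraries Ndufc2 was (0.0382) and Atp5l was not (0.0546). The Atp5l call was lost when 1 of 4 libraries was left out, namely replicate 2 of LysM-Cre at 0 h (adjusted p = 0.0576) or at 2 h (0.0619), or replicate 1 (0.0626) or 3 (0.0517) of FosKO at 2 h. Leaving out replicate 2 of LysM-Cre at 0 h, or replicate 1 or 3 of FosKO at 2 h, gave a count of 1, and leaving out replicate 1 of FosKO at 0 h gave 4. With replicate 3 of FosKO at 0 h left out it was 3, and Ndufc2 then differed by 0.13 (adjusted p = 0.0381). Over the whole study 9 members (11.7%, beside 14.2% of all tested genes) were called in none of the 13 comparisons: Ndufa11, Ndufa13, Ndufa3, Ndufb4, Ndufb5, Ndufb7, Ndufb9, Ndufs7 and Atp5g2. The number was 11 without FosKO replicate 3 at 0 h (14.3%, beside 14.4%).

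Of the 8 genes with a matching symbol that were no members, 4 were pseudogenes, namely Atp5k-ps2, Atp5l-ps1, Atp5l-ps2 and Atp5l2-ps. The others were tissue-restricted forms. Cox7a1, the muscle form of subunit VIIa, ran from 3.13 to 3.94 and was the nearest to the floor of 4. Cox4i2 and Ndufa4l2 ran from 0.67 to 1.03 and from -2.10 to -2.06, and Cox6b2 reached at most 1.63. Just inside the floor were Atp5g2 (4.09 to 6.02), Cox6a2 (4.68 to 5.51) and Atp5s (5.30 to 6.18). Of the paralogs that were members and are not described above, Cox6b1 was lower in FosKO at 1 and 2 h by -0.12 and -0.08. It was also lower after quantile normalisation (-0.16 and -0.17). Among high 18S libraries, with 1 LysM-Cre library left at 1 h, its 1 h difference was -0.11 and not called. Cox7b was lower at 0 and 1 h by -0.11 and -0.12 (-0.16 at both after quantile normalisation). Cox8a was lower at 0 h by -0.13, a call lost without FosKO replicate 3. Cox7a2 was called at no time between genotypes, and Cox7a2l was higher at 2 h by 0.10 (adjusted p = 0.0381) but was not called with TMM factors (0.07) and differed by -0.03 after quantile normalisation. Many subunit genes have processed pseudogenes of near-identical sequence, and how reads that match both were divided is uncertain, so small differences in such genes carry that limit.

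Other genes of the respiratory chain were counted from lists. Of the 13 subunits encoded in mitochondrial DNA, all tested, 3, 6, 6 and 4 were lower in FosKO in the order of time and only mt-Co3, at 1 h, was higher. The lower ones were 23.1%, 46.2%, 46.2% and 30.8% of the list, beside 15.9%, 19.7%, 15.9% and 20.3% of all tested genes, and after quantile normalisation 5, 9, 8 and 7 were lower and none higher. Without FosKO replicate 3 at 0 h 3 were again lower there, and among high 18S libraries 5 were lower and none higher at 1 h, with mt-Co3 no longer called (adjusted p = 0.0857). The lower ones at 0 h without FosKO replicate 3 were 23.1% of the list, beside 12.5% of all tested genes. The NADH dehydrogenase subunit mt-Nd2 read 14.24, 14.24 and 14.27 in LysM-Cre and 14.03, 13.91 and 14.21 in FosKO at 0 h, and was lower by -0.20, -0.28, -0.32 and -0.21 at the 4 times. Also called were the differences of mt-Nd4l at 0.5 h (-0.48, adjusted p = 0.0116, or 0.0619 without FosKO replicate 1) and of mt-Co3 at 1 h (1.37, adjusted p = 0.0458), a call lost after quantile normalisation (0.071) and in 5 of the fits that left out a library (0.0742 to 0.139), in a gene that ran from 12.73 to 15.08 in the FosKO libraries at 0 h. After 1 h of LPS 1 of the 13 was higher and mt-Co3 lower in LysM-Cre (-1.55, adjusted p = 0.0227, or 0.0539 to 0.0759 in 4 fits that left out a library), and 2 were lower in FosKO, among them mt-Nd4l (-0.43, adjusted p = 0.0285). In LysM-Cre the higher and the lower gene were each 7.69% of the list, beside 19.2% and 16.5% of all tested genes. The lower ones in FosKO were 15.4%, beside 15%. After 2 h mt-Nd1 alone was called in LysM-Cre (0.12), and it was lower there after quantile normalisation (-0.19). In FosKO at 2 h mt-Nd1 was higher (0.12), and lower after quantile normalisation (-0.42), and mt-Nd4l was lower (-0.35, adjusted p = 0.0425). Each call at 2 h was 1 of the 13, or 7.69%. Beside this, 30.6% of all tested genes were higher in LysM-Cre, and 32.6% higher and 29.5% lower in FosKO. Without FosKO replicate 3 at 0 h mt-Nd4l differed by -0.24 and -0.16 at 1 and 2 h and was not called (adjusted p = 0.199 and 0.322). At 2 h 4 of the 13 were then higher (30.8%, beside 31.7% of all tested genes) and none lower (beside 28.7%). Among high 18S libraries none of the 13 was called at 1 h in LysM-Cre, and 1 was lower in FosKO, where mt-Nd4l was not called (adjusted p = 0.0998).

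Of 50 tested assembly factors, 9 rose and 18 fell at 2 h in LysM-Cre and 9 rose and 20 fell in FosKO, or 13 and 13, and 12 and 16, after quantile normalisation. On the deposited scale 18% rose in each genotype, beside 30.6% and 32.6% of all tested genes. The falls were 36% and 40% of the list, beside 4200 of the 13901 tested genes in LysM-Cre and 29.5% in FosKO. Without FosKO replicate 3 at 0 h 9 rose and 17 fell in FosKO. Cox17, a copper chaperone for complex IV, read 9.13, 9.20 and 9.12 then 9.88, 9.86 and 9.87 in LysM-Cre, and 9.08, 9.05 and 8.77 then 10.03, 9.99 and 10.16 in FosKO, rises of 0.72 and 1.09. Tmem126b, needed to assemble complex I, fell by -0.98 and -1.04. Ndufaf4, a factor for the matrix arm, rose by 0.20 in LysM-Cre and fell by 0.47 in FosKO. Tmem186, a complex I assembly factor, fell by 0.66 and 0.77 at 1 h, and its decreases at 2 h were by 0.55 and 1.13. In FosKO against LysM-Cre, 6, 10, 6 and 8 of the 50 were called higher in the order of time. Called lower were 5, 5, 5 and 11. The higher ones were 12%, 20%, 12% and 16% of the list, beside 19.5%, 21.2%, 18% and 24.4% of all tested genes. The lower ones were 10%, 10%, 10% and 22%, beside 15.9%, 19.7%, 15.9% and 20.3%. Between genotypes the largest called differences in this list were lower in FosKO, for Cmc2 at 0 h (-0.47), Sco2 at 0.5 h (-0.52, lost after quantile normalisation with adjusted p = 0.0575 and -0.26 without FosKO replicate 3 at 0.5 h), Sdhaf1 at 1 h (-0.37, lost in 3 fits that left out a library, with adjusted p of 0.0559 to 0.0885) and Ndufaf4 at 2 h (-0.64).

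Of 13 tested carriers, inhibitors and factors that act on the chain, 9 rose and none fell at 2 h in LysM-Cre and 10 rose and 1 fell in FosKO, or 7 and 2, and 9 and 2, after quantile normalisation. The rises were 69.2% and 76.9% of this list, beside the same 30.6% and 32.6% of all tested genes, and the FosKO numbers stayed at 10 and 1 without replicate 3 at 0 h. AA467197, related to Ndufa4, read 6.27, 6.20 and 6.20 then 8.70, 8.71 and 8.97 in LysM-Cre, and 7.03, 7.31 and 7.60 then 9.97, 10.01 and 10.29 in FosKO. It rose by 2.57 and 2.78 and was higher in FosKO at each time, by 1.09, 1.39, 1.01 and 1.30. Acod1, listed as Irg1, which makes itaconate, read 11.50, 11.36 and 11.30 then 15.66, 15.68 and 15.74 in LysM-Cre, and 12.66, 13.26 and 13.56 then 16.61, 16.62 and 16.67 in FosKO. It rose by 4.31 and 3.47 and was higher in FosKO by 1.77, 2.09, 1.37 and 0.94 at the 4 times.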

How the data were processed

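RNA sequencing was analysed in 24 libraries, 3 in each of 8 groups. Per the study's methods, TruSeq libraries were sequenced from one end, with strand kept, on a HiSeq 2500. The submitters' processing notes name STAR 2.5.2a, RSEM 1.2.31, DESeq2 1.16.1 and the build GRCm38. The authors deposited 1 log2 value per gene and library, already normalised, which resemble a regularised log, so that differences of genes with few reads may be understated. The methods give a typical read yield but none per library, so depth per library is unknown, and errors are spreads between libraries.

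The members and gene lists were chosen with earlier results of these data known. Genes with 2 raised to the value of at least 5 in at least 3 libraries were tested. All libraries entered 1 limma 3.58.1 fit (R 4.3.3) with 8 group means, empirical Bayes with a trend and 16 residual degrees of freedom, and 13 comparisons were drawn, two-sided. The fit was tested on simulated data, with a pass mark that was lowered after the 2 h difference in response had recovered fewer of the changed genes than first required. Genes named are Cox5a, Ndufa4 and Sdha, the 3 largest called rises and falls of members per comparison, the 4 Sdh genes, paralog pairs, the called gene of each list with the largest difference, AA467197 and Acod1, and the 3 rows nearest to each side of the floor. Other genes named in calls kept under all scalings, in patterns over times or for their role were chosen after their values were seen. Alternatives were TMM factors (trimmed means of log ratios, on 2 raised to the value), quantile normalisation, a pseudocount of 1, no and stricter filters, no trend, the groups compared alone, 18S as a term or high 18S libraries only, a replicate block, and each library left out. Same-numbered libraries deviated together (all 3 correlations over 0.1, from 0.134 to 0.269) in 1 comparison of 2 groups, 0.5 h of LPS in FosKO, as read from the values and not from the labels. Positions come from GENCODE on GRCm38 and promoters from RefSeq on GRCm38.p6.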

Additional observations from a re-analysis of the deposited data

Results flagged for a closer look

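A difference of LPS responses, one genotype against the other, passed limma's test for 15 of the members and listed genes. Tested were 77 members, 13 mitochondrially encoded subunits, 50 assembly factors, 13 carriers, inhibitors and factors, 18 tricarboxylic acid cycle genes and 19 regulators. The values are FosKO response minus LysM-Cre response on the log2 scale. They come from the fit of all 24 libraries and so include FosKO replicate 3 at 0 h, which stood apart in the members. For the listed genes, differences of responses without that library are not given here. At 1 h the only one was Myc, at -0.64 (adjusted p = 5.44e-04). At 2 h 2 members were called, Ndufc2 at 0.16 (adjusted p = 0.0142) and Atp5l at 0.20 (adjusted p = 0.0213). The assembly factors at 2 h were Cox20 at 0.25, Cox17 at 0.37, Ndufaf4 at -0.67, Tmem186 at -0.58 and Ecsit at -0.26. The enzymes at 2 h were Cs at 0.16, Pdhx at -0.27 and Irg1 at -0.83. The regulators at 2 h were Hif1a at -0.33, Tfb2m at -0.29, Mterf1a at -0.75 and Pprc1 at -0.33. At 2 h 15% of all tested genes were called in this comparison, beside 2.6% of members.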

How the results depend on the processing

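Counts of members called moved with the scaling and with the libraries in the fit. After quantile normalisation they were 6, 18 and 23 at 0.5, 1 and 2 h of LPS in LysM-Cre, and 0 and 32 at 0.5 and 2 h in FosKO. Under it 50 member differences called on the deposited scale, over all comparisons, had the opposite sign, 20 and 16 of them at 2 h of LPS in LysM-Cre and FosKO. Of the single results followed over all alternatives, 17 changed sign. Between FosKO and LysM-Cre at 2 h this was Cox7a2l (-0.027). For LPS at 1 h in LysM-Cre they were Sdha (-0.17), Cox6a1 (-0.024) and Cox7a2l (-0.089). For LPS at 2 h in LysM-Cre they were Atp5a1 (-0.093), Sdha (-0.25), Sdhc (-0.15), Sdhd (-0.074), Atp5g3 (-0.0056), Cox6a1 (-0.038) and mt-Nd1 (-0.19). In FosKO they were Sdha (-0.13) and Cox6a1 (-0.0049) at 1 h of LPS. At 2 h of LPS in FosKO they were Sdha (-0.26), Sdhc (-0.10), Sdhd (-0.037) and Cox7a2l (-0.16). Called differences outside those 17 also changed sign, among them Atp5a1 and mt-Nd1 in FosKO and Cox4i1 in both genotypes at 2 h of LPS. The cause was not tested. With only the groups compared in the fit, 11 members were called between genotypes at 0 h, 0 and 3 in FosKO after 0.5 and 1 h of LPS, and 0 for the 2 h difference of responses. With high 18S libraries only, 6 were called between genotypes at 1 h, 0 at 1 h of LPS in LysM-Cre, 0 and 5 at 0.5 and 1 h in FosKO, and 1 for the difference at 2 h.

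With each library left out in turn, 14 to 32, 12 to 16, 12 to 20 and 12 to 18 members were called between genotypes at 0, 0.5, 1 and 2 h. The ranges were 0 to 0, 5 to 11 and 30 to 35 for LPS at 0.5, 1 and 2 h in LysM-Cre, 0 to 1, 6 to 19 and 42 to 55 in FosKO, and 0 to 0, 0 to 0 and 1 to 4 for the difference in response. The lowest and highest at 0 h were without FosKO replicate 3 and without FosKO replicate 1.

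Correlations between same-numbered libraries exceeded 0.1 in 2 of 12 pairs across genotypes, in 3 of 18 across times in LysM-Cre and in 9 of 18 in FosKO. By comparison, all 3 pairs did so for LPS at 0.5 h in FosKO, where the block left the count at 1, and in no other comparison drawn here, though FosKO libraries at 0.5 and 1 h, not compared with each other, did so too (0.33 to 0.706). Every library correlated best with its own number there and for LPS at 1 and 2 h in LysM-Cre, which is a hint from the data and not the design. With a replicate block the counts were 28, 16, 24 and 18 between genotypes, 0, 9 and 38 for LPS in LysM-Cre, 1, 12 and 55 in FosKO, and 0, 0 and 4 for the difference, where the count without it was 2 at 2 h, and with the block within each genotype 3. Of the single results over all alternatives, 4415 kept direction and side of the threshold, 37 became called, 237 lost the call and 17 reversed. Unknown depth means that counting error could not be set apart from the spread between libraries.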

Other observations

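Enzymes and regulators around the respiratory chain were also measured. Of 18 genes of the tricarboxylic acid cycle and pyruvate entry, 10 rose and none fell at 2 h of LPS in LysM-Cre and 12 rose and none fell in FosKO, but after quantile normalisation 3 rose and 5 fell, and 5 and 5, and without FosKO replicate 3 at 0 h 10 rose and 1 fell in FosKO. On the deposited scale the rises were 55.6% and 66.7% of these genes, beside 30.6% and 32.6% of all tested genes. Cs, the citrate synthase gene, rose by 0.19 in LysM-Cre and 0.35 in FosKO. Dld, a component shared by several dehydrogenases, rose by 0.41 and 0.44 at 2 h, after smaller increases of 0.19 and 0.21 at 1 h, and Pdhx, a component of the pyruvate dehydrogenase complex, by 0.44 and 0.17 at 2 h. Between genotypes, as deposited, 5 of the 18 were called higher and 1 lower in FosKO at 0 h. The numbers were 4 and 5, 4 and 4, and 5 and 2 at 0.5, 1 and 2 h. The higher ones were 27.8%, 22.2%, 22.2% and 27.8% of the list, beside 19.5%, 21.2%, 18% and 24.4% of all tested genes. The lower ones were 5.56%, 27.8%, 22.2% and 11.1%, beside 15.9%, 19.7%, 15.9% and 20.3%. The largest called difference at each time was a lower one. These were the isocitrate dehydrogenase gene Idh2 at 0 and 1 h (-0.24 and -0.23), Idh3a at 0.5 h (-0.23) and the fumarase gene Fh1 at 2 h (-0.20). Of 19 regulators of respiratory genes, 9 rose and 6 fell at 2 h in LysM-Cre and 11 rose and 8 fell in FosKO, or 9 and 7 in both after quantile normalisation, and the FosKO numbers were 11 and 8 without replicate 3 at 0 h too. The rises were 47.4% and 57.9% of the regulators as deposited, against 30.6% and 32.6% of all tested genes. As to falls, 4200 of the 13901 tested genes fell at 2 h in LysM-Cre and 29.5% in FosKO. Myc differed from 0 h by 0.98, 1.26 and -1.22 at 0.5, 1 and 2 h in LysM-Cre and by 0.67, 0.62 and -1.29 in FosKO, with the 3 times sharing their 0 h libraries. Ppargc1b, a coactivator of mitochondrial genes, rose at 2 h by 0.97 in LysM-Cre and 1.37 in FosKO. Polrmt, the mitochondrial RNA polymerase gene, was lower in FosKO at 2 h by -0.42, Myc at 0.5 and 1 h by -0.55 and -0.88, and Mterf1a was higher at 0 h by 0.43, a call lost in 3 fits that left out a library (adjusted p 0.0856 to 0.153). Mterf1a fell by 0.75 at 1 h of LPS in FosKO.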
